A study of Homo sapiens with 20 samples.

Results

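The genes described here encode 34 enzymes and carriers that make or recycle nucleotides, make serine, or move folate-bound carbon units. They were chosen by symbol, as the probe sets annotated to exactly 1 of the 34 symbols, and were grouped by role into PRPP supply (2 genes), purine synthesis (9), pyrimidine synthesis (5), serine synthesis (3), folate metabolism (7), and salvage enzymes and nucleotide kinases (8). The rule itself uses no measured value, but the genes were picked with earlier results of these data known. For 33 of the 34 symbols such a probe set existed, 36 probe sets in all, among 15850 genes tested. NME1, a nucleoside diphosphate kinase, shares its probe set with a read-through transcript and was not tested.

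RNA was taken from 5 established lines of classical Hodgkin lymphoma, named L428, KM-H2, UHO-1, L1236 and SUP-HD1. Every line stably carried FOXO1(3A)ER, a constitutively active form of the transcription factor FOXO1 joined to the hormone-binding part of the oestrogen receptor. Cells of each line received either 4-hydroxytamoxifen (4-OHT), the ligand that switches such a fusion on, or the ethanol vehicle, and RNA was isolated after 24 h. Each of the 10 groups, a vehicle and a 4-OHT group for each line, held 2 arrays, 20 in all. Vehicle cells carried the fusion too, and no line without it was among the arrays, and what 4-OHT does by itself cannot be told apart from what the fusion does. The labels' dose of 200 µM 4-OHT stands in a sentence about a different fusion in L428 and KM-H2, so whether it applies to these arrays is not settled. They say that the experiment was repeated, without saying whether the arrays within a group are separate cultures. The p-values therefore measure the spread between these arrays, which may be technical.

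Purine synthesis builds the ring of IMP step by step on phosphoribosyl pyrophosphate (PRPP) and then turns IMP into adenine and guanine nucleotides. Pyrimidine synthesis first makes the ring and then joins it to PRPP. Both need amino acids, and purine and thymidylate synthesis also need carbon units carried by folate, most of which come from serine. Salvage enzymes instead recycle free bases and nucleosides. In dividing lymphoid cells MYC is a well-known activator of many of these genes through the E-box motif, and ATF4 of the serine and mitochondrial folate genes.

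The values were log2 expression values normalised by their authors. Their sorted values put the arrays in separate sets, taken here as normalised apart, so that levels were compared between lines only within a set. The first set held the 8 arrays of KM-H2 and L428, with medians from 5.67 to 5.71, and the other the 12 arrays of SUP-HD1, UHO-1 and L1236, with medians from 6.26 to 6.41. The arrays labelled L1236 went against that label. All 6 T cell markers examined were high there, with CD3E at a mean of 12.22, CD3G at 11.91 and CD3D at 11.35 in the vehicle arrays, and the median of the list was 10.56 against 4.42 to 5.46 in the other lines. The summed level of the list ran from 61.4 to 62.4 over the 4 L1236 arrays and from 26.7 to 33.8 over the 16 arrays of the other lines. IRF4, from the list of Hodgkin and B cell markers, was at 6.31 in L1236 and from 11.45 to 12.20 in the other vehicle groups. CD79A, a B cell marker, went the other way, at 9.33 in L1236 vehicle arrays against 5.60 to 6.63 in the other lines. It rose by 2.36 with 4-OHT in L1236, and the myeloid marker LYZ rose by 3.66, from 4.27 to 7.93. The summed level of the 9 Hodgkin and B cell markers ran from 59.3 to 63.0 in L1236 and from 65.6 to 83.7 in the other lines. In vehicle arrays 4 of the 9 had a mean of 7 or above in L1236. That number was 5 in KM-H2, 6 in L428, and 7 in UHO-1 and in SUP-HD1. "L1236" below means the arrays labelled so, and results that rest on them are also given without them. The B cell antigen MS4A1 lay below the detection floor of 5 in every line.

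Promoter sequence was at hand for 28 of the 34 genes, as RefSeq windows on GRCh38.p14 from 250 bases before to 50 bases after a start. Among the genes called lower in every line, PAICS, ATIC, DHODH and MTHFD1 hold the E-box in a window, and PFAS and PRPS2 do not. PPAT and MTHFD1L, which hold it, were called lower in every line except SUP-HD1. So were CAD and GART, whose windows hold none. UCK2, also without it, was called lower in every line except KM-H2. The stretches below were picked with these changes known. All are written 5′ to 3′ on the plus strand, with CACGTG in capitals. PAICS and PPAT, which encode enzymes of purine synthesis, start 137 bases apart on opposite strands of chromosome 4. The first stretch is the interval between those starts and the next lies just inside PAICS. The ATIC, MTHFD1 and PFAS stretches end at the base before the start, and the MTHFD1L stretch spans a start. The DHODH stretch ends at base 72008670, short of the start at 72008744. A further E-box of ATIC, 29 bases after its start, is not shown. Windows at other starts of PAICS hold none. For MTHFD1L, the windows at starts 150866447 and 150866486 hold the same site as the one shown, and the window at 151007008 holds none. PFAS, like PRPS2, which is not shown, is a gene without the motif.
PAICS-PPAT interval, chr4:56435616-56435751: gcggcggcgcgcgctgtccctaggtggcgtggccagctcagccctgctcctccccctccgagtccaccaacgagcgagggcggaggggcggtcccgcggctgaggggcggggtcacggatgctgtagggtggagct
PAICS, chr4:56435772-56435801: ctggaaagctgtatttgctgCACGTGgaaa
ATIC, chr2:215311959-215312058: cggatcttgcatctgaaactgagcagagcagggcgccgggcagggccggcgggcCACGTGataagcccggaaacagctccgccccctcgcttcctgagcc
MTHFD1, chr14:64388253-64388352: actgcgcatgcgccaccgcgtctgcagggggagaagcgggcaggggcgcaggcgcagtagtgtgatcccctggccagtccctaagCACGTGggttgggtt
DHODH, chr16:72008571-72008670: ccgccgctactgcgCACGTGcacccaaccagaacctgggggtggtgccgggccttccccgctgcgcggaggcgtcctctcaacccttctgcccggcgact
MTHFD1L, chr6:150866320-150866349: cacgcccggctcCACGTGcgcagccggccg
PFAS, chr17:8249189-8249288: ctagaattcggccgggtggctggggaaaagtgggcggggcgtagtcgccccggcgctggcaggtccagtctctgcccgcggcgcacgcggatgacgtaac

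The E-box CACGTG, which reads the same on both strands, lay in a window of 7 of the 28 genes (25%), namely PPAT, PAICS, ATIC, DHODH, MTHFD1, MTHFD1L and NME1. It lay in a window of 8.77% of all 27305 genes with a window. The PPAT and PAICS windows overlap and hold the same site, so the 7 genes are not independent. The forkhead motif GTAAACA, searched on both strands, was found for 1 of the 28 genes, CMPK1 (3.57%), and for 4.19% of all genes. The ATF4-type element TGATGNAA was found for MTHFD1L alone (3.57%) and for 4.46% of all genes. These are matches of letters in short windows, and binding was not measured.

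Across the 5 lines, 4-OHT lowered most of these genes by a modest amount. On the average of the 5 lines, 28 of the 33 tested genes were lower with 4-OHT, 3 were higher (SLC25A32, ADK and ALDH1L2), and CTPS2 and CMPK1 were not called. The median change was -0.28 log2 units, beside -0.025 over all genes tested. A gene was called where limma's adjusted p, by Benjamini-Hochberg over the 15850 genes, was below 0.05. Among all genes 21.2% were lower and 17.4% were higher on average. These shares, and those given below, were not taken among genes of like signal. When the 5 lines were treated as the replicates, with 1 change per line, none of the 33 genes was called by limma and 24 had an unadjusted p under 0.05. Of all genes, that fit called 1 and gave 2496 an unadjusted p under 0.05.

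The number of genes that fell differed between lines. In KM-H2, 16 of 33 were lower and 2 higher, beside 12.3% and 10.0% of all genes. In L428, 26 were lower and 1 higher, beside 17.5% and 12.0%. L428 had the largest share of the genes called lower, and its median change was -0.37 log2 units. In L1236, 24 were lower and 1 higher, beside 14.9% and 8.25%, with a median of -0.38. In UHO-1, 19 were lower and 1 higher, beside 11.1% and 13.4%, with a median of -0.21. SUP-HD1 changed least, with 9 lower and none higher, beside 2.35% and 3.68% of all genes and with a median of -0.16. At an unadjusted p under 0.05, 20 of the 33 genes passed in SUP-HD1 in either direction, beside 16.6% of all genes. Median centring of each array, which also moved all genes in UHO-1 to 5.77% lower and 15.5% higher, left 9 genes lower in UHO-1 and 4 in SUP-HD1. The split of all genes moved to 17.5% lower and 5.39% higher in L1236 and to 1.07% and 2.89% in SUP-HD1 under this centring. Cyclic loess gave 8.14% and 14.3% in UHO-1. For fits without single arrays, here and below, shares of all genes are not given. The UHO-1 count was 9 without vehicle array 1, 12 without 4-OHT array 1 and 11 without 4-OHT array 2, and the SUP-HD1 count was 2 without vehicle array 1 and 4 without 4-OHT array 2. In KM-H2, 4 genes were higher without 4-OHT array 2.

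**Figure D1:**
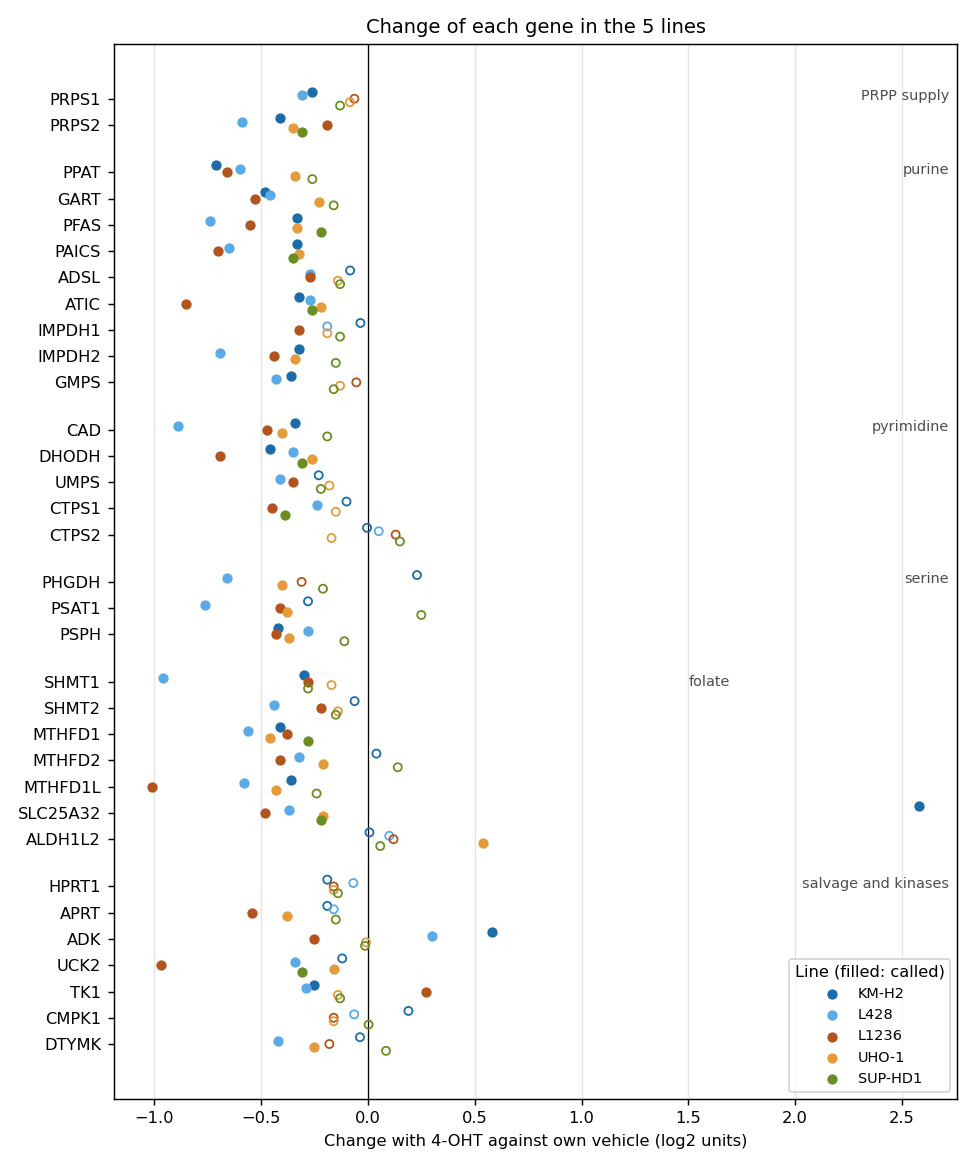
Change in log2 units (4-OHT minus vehicle, 2 arrays each) of each of the 33 genes in each line, with 1 colour per line and filled points where limma called the change. Most points lie between 0 and -1, and SLC25A32 in KM-H2 stands alone at 2.58.

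Of the 165 combinations of gene and line, 94 were lower and 5 were higher. By line, the shares of all genes ran from 2.35% to 17.5% lower and from 3.68% to 13.4% higher. The sign was negative in every line for 23 of the 33 genes, beside 9.74% of all genes. The 6 genes called lower in every line were PRPS2, PFAS, PAICS, ATIC, DHODH and MTHFD1, where 0.240% of all genes were so called. The same 6 were the genes called lower in each of the 4 lines other than L1236, beside 0.423% of all genes. A further 8 were called lower in 4 lines (PPAT, GART, IMPDH2, CAD, PSPH, MTHFD1L, SLC25A32 and UCK2), beside 1.17% of all genes. At the other end, CTPS2, ALDH1L2, HPRT1 and CMPK1 were called lower in no line, beside 61.7% of all genes.

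The PRPP synthetases make the ribose donor that both branches use. PRPS2 fell in every line and PRPS1 in KM-H2 and L428. For PRPS2 the vehicle arrays read 11.30 and 11.27 in KM-H2, against 10.90 and 10.85 with 4-OHT, and in L428 the values were 10.25 and 10.11 against 9.63 and 9.56. In SUP-HD1 they were 9.07 and 8.90 against 8.70 and 8.65, in UHO-1 10.00 and 9.94 against 9.61 and 9.63, and in L1236 10.72 and 10.74 against 10.56 and 10.52. In no line did the 4-OHT arrays of PRPS2 reach the vehicle arrays. Its average change was -0.37 ± 0.028 (SE, 10 arrays per arm, limma adjusted p = 3.46e-10), which is 1.29-fold lower, and ran from -0.19 in L1236 to -0.59 in L428. The call in L1236 was lost in 8 of 32 alternatives, among them leaving out any of the 4 arrays of L1236, and that in SUP-HD1 without its vehicle array 1. PRPS1 changed by -0.26 in KM-H2 and -0.31 in L428, and by -0.06 to -0.13 in the other lines, where it was not called. Those calls were lost without KM-H2 vehicle array 2 or 4-OHT array 1, and without L428 4-OHT array 2.

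All 9 purine genes were lower on average, with a median of -0.38 log2 units. They cover the path from PRPP to IMP (PPAT, GART, PFAS, PAICS, ADSL and ATIC) and on to GMP (IMPDH1, IMPDH2 and GMPS). None was called higher in any line. PAICS, which catalyses middle steps of the ring, read 11.07 and 11.14 with vehicle in KM-H2 and 10.87 and 10.68 with 4-OHT, and in L428 10.57 and 10.52 against 9.95 and 9.84. In L1236 it read 11.02 and 11.17 against 10.42 and 10.36, in UHO-1 10.82 and 10.76 against 10.52 and 10.41, and in SUP-HD1 10.84 and 10.70 against 10.42 and 10.44. The arms of PAICS stood apart in each line, with the widest gap in L1236 and L428. The average change was -0.47 ± 0.030 (adjusted p = 2.54e-11, 1.39-fold lower). By line it was -0.70 in L1236, -0.65 in L428, and between -0.32 and -0.35 in the others. Without SUP-HD1 vehicle array 1 the adjusted p for SUP-HD1 was 0.0516.

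PFAS, which catalyses an early step of the ring, was called lower in every line, least surely in SUP-HD1. Its vehicle arrays read 8.84 and 8.80 in KM-H2 against 8.46 and 8.52 with 4-OHT, and 9.40 and 9.45 in L428 against 8.69 and 8.67. PFAS in L1236 read 8.93 and 8.92 against 8.34 and 8.43, in UHO-1 9.26 and 9.32 against 9.0 and 8.91, and in SUP-HD1 8.87 and 8.94 against 8.67 and 8.69. Vehicle and 4-OHT arrays did not overlap in any line. The average change of PFAS was -0.43 ± 0.029 (adjusted p = 5.26e-11). It was -0.74 in L428 and -0.22 in SUP-HD1, where the adjusted p was 0.0454 and ranged from 0.0272 to 0.253 over 32 alternatives, 19 of which lost the call, among them leaving out any of the 4 arrays of SUP-HD1.

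ATIC, which closes the purine ring, had its largest fall in L1236. Its vehicle values were 10.09 and 10.12 in KM-H2 against 9.83 and 9.74 with 4-OHT, and 10.96 and 10.93 in L428 against 10.68 and 10.66. In L1236 they were 10.65 and 10.69 against 9.98 and 9.67, in UHO-1 10.80 and 10.62 against 10.53 and 10.45, and in SUP-HD1 10.90 and 10.80 against 10.62 and 10.55. The arms did not overlap, although in UHO-1 the lower vehicle array and the higher 4-OHT array were close. The change was -0.85 ± 0.075 in L1236 (adjusted p = 1.34e-08, 1.80-fold lower) and between -0.22 and -0.32 in the other lines. The call in SUP-HD1 was lost in 10 of 32 alternatives, including the loss of any of its 4 arrays, and that in UHO-1 in 5, including the loss of vehicle array 1 or of either 4-OHT array.

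IMPDH2, the main enzyme that directs IMP to guanine nucleotides, had the smallest p of the purine genes on average. It read 9.59 and 9.58 in KM-H2 vehicle arrays against 9.26 and 9.26 with 4-OHT, and 11.14 and 11.09 in L428 against 10.44 and 10.40. IMPDH2 in L1236 read 10.72 and 10.74 against 10.35 and 10.24, in UHO-1 10.71 and 10.68 against 10.35 and 10.37, and in SUP-HD1 11.07 and 10.99 against 10.88 and 10.88. The replicate arrays lay close together, and the fall was largest in L428 at -0.69 ± 0.051 (adjusted p = 5.49e-10). On average the change was -0.39 ± 0.023 (adjusted p = 5.45e-12), and in SUP-HD1 it was -0.15 (adjusted p = 0.0897), which was not called. The sister gene IMPDH1 was called in L1236 alone, at -0.32, and there an adjusted p of 0.0505 remained without 4-OHT array 1.

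PPAT and GART were called lower in every line except SUP-HD1. PPAT, the enzyme of the committed first step, changed by -0.71 in KM-H2, -0.66 in L1236, -0.60 in L428 and -0.34 in UHO-1, while SUP-HD1 stood at -0.26 (adjusted p = 0.0701). GART, which catalyses several steps, changed by -0.48, -0.46, -0.53 and -0.23 in KM-H2, L428, L1236 and UHO-1, and by -0.16 in SUP-HD1. The UHO-1 calls of both genes were lost without UHO-1 vehicle array 1, and that of GART also without either 4-OHT array. GMPS, the last step to GMP, was called in KM-H2 (-0.36) and L428 (-0.43) but was -0.05 in L1236. ADSL, which also acts on the route from IMP to AMP, was called in L428 and L1236, at -0.27 in each, but not without L428 vehicle array 2 or 4-OHT array 1, and not without L1236 vehicle array 2 or 4-OHT array 1.

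**Figure D2:**
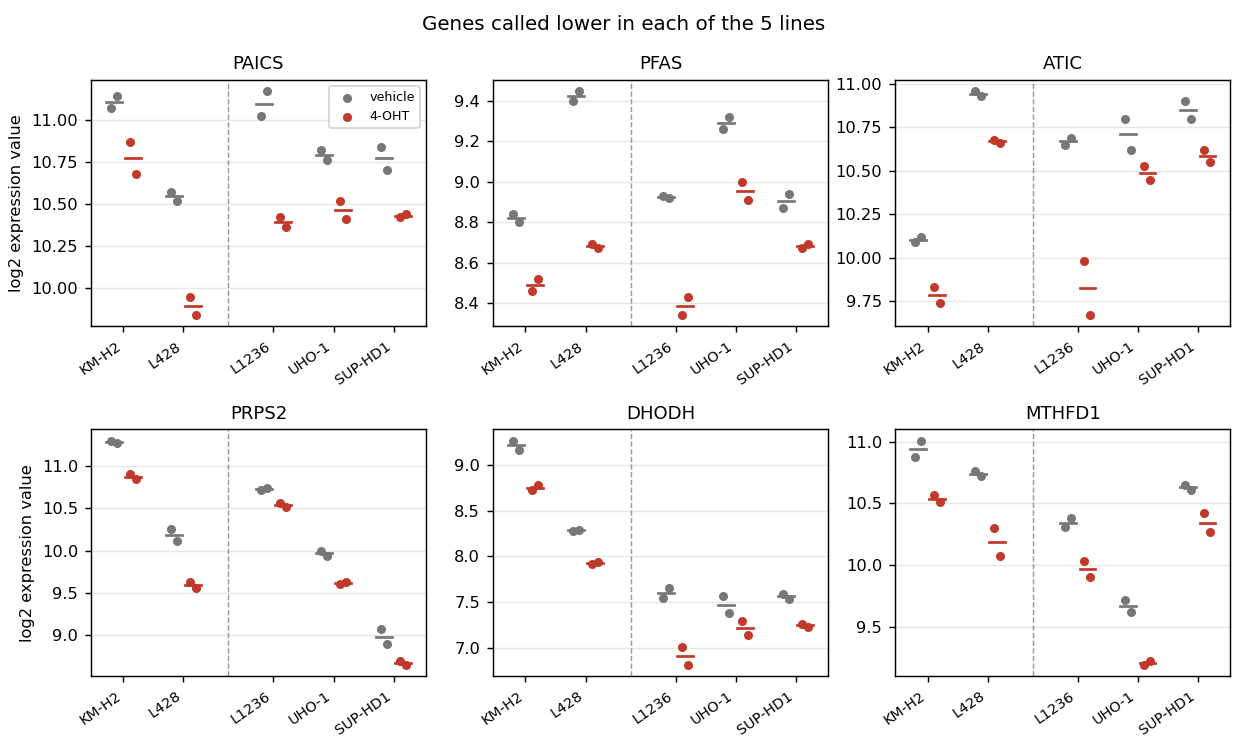
Log2 expression value of the 6 genes called lower in each line, with 1 point per array, grey for vehicle and red for 4-OHT, and a bar at the mean of 2 arrays. The dashed line parts the sets taken as normalised separately, and within each line every red point lies under both grey points.

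Among the pyrimidine genes, 4 of 5 were lower on average, with a median of -0.28, and CTPS2 was not called in any line. CAD, which catalyses the first steps of the pathway, had the smallest p. Its vehicle arrays read 9.14 and 9.24 in KM-H2 against 8.80 and 8.90 with 4-OHT, and 9.16 and 9.24 in L428 against 8.39 and 8.22. In L1236 CAD read 9.18 and 9.37 against 8.83 and 8.79, in UHO-1 9.19 and 9.09 against 8.78 and 8.70, and in SUP-HD1 9.15 and 9.14 against 8.97 and 8.95. Vehicle levels of CAD were alike across the lines of a set, and L428 fell furthest. The average change was -0.46 ± 0.034 (adjusted p = 3.00e-10), with -0.89 ± 0.077 in L428 (1.86-fold lower) and -0.19 in SUP-HD1 (adjusted p = 0.194), which was not called.

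DHODH, the mitochondrial enzyme of the pathway, was called lower in every line. It read 9.27 and 9.17 in KM-H2 vehicle arrays against 8.73 and 8.78 with 4-OHT, and 8.28 and 8.29 in L428 against 7.92 and 7.94. DHODH in L1236 read 7.54 and 7.65 against 7.01 and 6.81, in UHO-1 7.56 and 7.38 against 7.29 and 7.14, and in SUP-HD1 7.59 and 7.53 against 7.26 and 7.23. The arms were apart in each line, least so in UHO-1. On average DHODH changed by -0.41 ± 0.040 (adjusted p = 1.92e-08), most in L1236 at -0.69 and least in UHO-1 at -0.26. The call was lost in 10 of 32 alternatives in UHO-1 and in 13 in SUP-HD1, each time including arrays of that line (UHO-1 vehicle array 1 and 4-OHT array 2, and any of the 4 arrays of SUP-HD1).

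UMPS, which makes UMP, was called in L428 (-0.41) and L1236 (-0.35), the latter call lost without L1236 vehicle array 1 or 4-OHT array 2. CTPS1, which turns UTP into CTP, was called in L428 (-0.24, not without L428 vehicle array 1 or 4-OHT array 2), L1236 (-0.45) and SUP-HD1 (-0.39). It is the gene with the largest fall among those called in SUP-HD1. Its sister CTPS2 lay below the floor of 5 in both arms of KM-H2, L1236 and UHO-1, and changed by 0.05 in L428 and 0.15 in SUP-HD1, neither of them called. In those lines the 4-OHT arrays of CTPS2 overlapped the vehicle arrays.

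The serine genes act in the order PHGDH, PSAT1, PSPH, and all 3 were lower on average, with a median of -0.32. All 3 were called lower in L428 and in UHO-1, and none in SUP-HD1. PSPH had the smallest p. It read 8.94 and 8.95 in KM-H2 vehicle arrays against 8.52 and 8.55 with 4-OHT, and 8.81 and 9.02 in L428 against 8.59 and 8.68. PSPH in L1236 read 8.72 and 8.65 against 8.36 and 8.16, in UHO-1 8.20 and 8.13 against 7.81 and 7.77, and in SUP-HD1 9.30 and 9.28 against 9.19 and 9.17. The arms did not overlap, but the SUP-HD1 change of -0.11 was not called. The average change was -0.32 ± 0.035 (adjusted p = 1.26e-07). A probe set of PSPH that was not used, since it had the lower mean, changed by -0.31 in KM-H2, -0.68 in L1236, -0.52 in L428, 0.18 in SUP-HD1 and 0.14 in UHO-1, so the probe sets differ in sign in UHO-1 and SUP-HD1. With the mean of both, the UHO-1 call was lost (adjusted p = 0.285), and the L428 call was lost without L428 vehicle array 2 or 4-OHT array 1.

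PHGDH, the first enzyme of the serine pathway, was called lower in L428 and UHO-1. In L428 its arrays read 10.83 and 10.70 with vehicle and 10.19 and 10.02 with 4-OHT, a change of -0.66 ± 0.13 (adjusted p = 2.56e-04). In UHO-1 they read 9.52 and 9.39 against 9.08 and 9.03, a change of -0.40 (adjusted p = 0.0262), a call that was lost without any of the 4 arrays of UHO-1. In L1236 they read 10.88 and 10.92 against 10.63 and 10.54, a change of -0.31 that was not called (adjusted p = 0.0832), though the arms did not overlap. In KM-H2 and SUP-HD1, where PHGDH was low, the arms overlapped. PSAT1 changed by -0.76 in L428, -0.41 in L1236 and -0.38 in UHO-1. The L1236 call was lost without L1236 vehicle array 2 or 4-OHT array 2, and the UHO-1 call without UHO-1 vehicle array 1 or 4-OHT array 2. In SUP-HD1 its arrays read 10.93 and 10.88 with vehicle and 11.21 and 11.11 with 4-OHT. That difference of 0.25 was not called (adjusted p = 0.199), though the arms did not overlap.

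Of the 7 folate genes, 5 were lower and 2 higher on average, and SLC25A32 and ALDH1L2 were the higher ones. The median was -0.20, and -0.30 without SLC25A32. SHMT1 and SHMT2 split serine into glycine and a folate-bound carbon unit in the cytosol and in mitochondria. MTHFD1 in the cytosol, and MTHFD2 and MTHFD1L in mitochondria, interconvert the folate-bound units. ALDH1L2 oxidises one of them in mitochondria.

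MTHFD1 was called lower in every line. In KM-H2 it read 10.88 and 11.01 with vehicle against 10.57 and 10.51 with 4-OHT, and in L428 10.76 and 10.72 against 10.30 and 10.07. In L1236 the values were 10.31 and 10.38 against 10.03 and 9.90, in UHO-1 9.72 and 9.62 against 9.19 and 9.22, and in SUP-HD1 10.65 and 10.61 against 10.42 and 10.27. No 4-OHT array reached a vehicle array of its line. The average change was -0.42 ± 0.032 (adjusted p = 4.46e-10, 1.34-fold lower), and the lines ran from -0.28 in SUP-HD1 to -0.56 in L428. MTHFD1 did not pass the F test of whether the change varied between lines. The SUP-HD1 call was lost in 5 of 32 alternatives, including the loss of either vehicle array or of 4-OHT array 2.

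MTHFD1L showed the largest fall of any of the genes in any line. In L1236 its vehicle arrays read 8.90 and 9.09 and its 4-OHT arrays 8.04 and 7.93, a change of -1.01 ± 0.092 (adjusted p = 1.99e-08, 2.01-fold lower). In KM-H2 it read 7.75 and 7.76 against 7.30 and 7.49, and in L428 8.77 and 8.81 against 8.32 and 8.10. In UHO-1 it read 8.60 and 8.44 against 8.18 and 8.0, and in SUP-HD1 9.89 and 9.86 against 9.65 and 9.62. The arms were apart in each line, and the change was called in all except SUP-HD1 (-0.24, adjusted p = 0.163). The KM-H2 call was lost without KM-H2 4-OHT array 1. On average MTHFD1L changed by -0.52 ± 0.041 (adjusted p = 6.56e-10), and by -0.40 without L1236.

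The serine hydroxymethyltransferases fell most in L428. SHMT1 changed by -0.96 ± 0.091 there (adjusted p = 2.58e-08, 1.94-fold lower) and by -0.30 in KM-H2 and -0.28 in L1236, while UHO-1 and SUP-HD1 were not called. SHMT2 changed by -0.44 in L428 and -0.22 in L1236. MTHFD2, which pairs with MTHFD1L in mitochondria, was lower in L428 (-0.32), L1236 (-0.41) and UHO-1 (-0.21). In SUP-HD1 MTHFD2 read 11.82 and 11.70 with vehicle and 11.89 and 11.92 with 4-OHT, a difference of 0.14 that was not called (adjusted p = 0.169). The other probe set of MTHFD2 had the same sign in each line, from -0.31 in L1236 to 0.11 in SUP-HD1. The KM-H2 call of SHMT1 was lost without KM-H2 vehicle array 2 or 4-OHT array 2. The L1236 calls of SHMT1 and SHMT2 were lost without L1236 vehicle array 2 or 4-OHT array 2, and the UHO-1 call of MTHFD2 without any array of UHO-1 other than 4-OHT array 2.

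ALDH1L2 was called higher in UHO-1, where it read 5.11 and 5.23 with vehicle and 5.67 and 5.75 with 4-OHT. The change was 0.54 ± 0.12 (adjusted p = 0.00361). In the other lines both arms of ALDH1L2 lay below the floor of 5. Its average call (0.16, adjusted p = 0.0217) was lost without the line UHO-1 and when any of 4 arrays was left out (KM-H2 vehicle 1, KM-H2 4-OHT 2, L1236 vehicle 2 or UHO-1 vehicle 1).

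SLC25A32, the carrier that brings folate into mitochondria, rose in KM-H2 and fell in the other 4 lines. In KM-H2 its arrays read 9.81 and 9.85 with vehicle and 12.45 and 12.37 with 4-OHT. The change of 2.58 ± 0.054 (adjusted p = 4.30e-20, 5.98-fold higher) was the largest rise of any of the 33 genes. In L428 the arrays read 11.37 and 11.44 against 11.05 and 11.02, and in L1236 10.74 and 10.83 against 10.32 and 10.30. In UHO-1 they read 11.04 and 10.93 against 10.77 and 10.79, and in SUP-HD1 10.45 and 10.38 against 10.23 and 10.16. The arms were apart in every line, with the same order in all except KM-H2. The changes were -0.48 in L1236, -0.37 in L428, -0.22 in SUP-HD1 and -0.21 in UHO-1. The UHO-1 call was lost without UHO-1 vehicle array 1 or 4-OHT array 1, and the SUP-HD1 call without SUP-HD1 vehicle array 1 or 4-OHT array 2. The average of 0.26 rests on KM-H2 and became -0.32 without that line.

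The genes next to SLC25A32 in RefSeq order also rose in KM-H2 in part. These neighbours were looked up after the values of SLC25A32 had been seen. DCAF13 went from a mean of 8.01 to 9.02, a change of 1.01 (adjusted p = 7.48e-11), and RIMS2 from 5.26 to 7.35, a change of 2.08 (adjusted p = 2.74e-12). FZD6 rose by 0.44 below the floor, and CTHRC1 changed by 0.16 without a call. DCAF13 fell in L1236 (-0.50) and was not called in the other 3 lines, while RIMS2 rose by 0.65 in L428 and 0.68 in UHO-1.

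Of the 7 salvage enzymes and kinases tested, 5 were lower and 1 was higher on average, with a median of -0.14. UCK2, which phosphorylates uridine and cytidine, had the smallest p of them. It read 11.02 and 11.07 in KM-H2 vehicle arrays against 10.90 and 10.94 with 4-OHT, and 10.72 and 10.70 in L428 against 10.40 and 10.34. UCK2 in L1236 read 10.48 and 10.45 against 9.53 and 9.46, in UHO-1 9.36 and 9.34 against 9.22 and 9.16, and in SUP-HD1 10.61 and 10.54 against 10.23 and 10.30. L1236 fell furthest, with a change of -0.97 ± 0.054 (adjusted p = 5.63e-12, 1.96-fold lower). The average was -0.38 ± 0.024 (adjusted p = 1.45e-11), KM-H2 was not called (-0.12, adjusted p = 0.113), the average without L1236 was -0.24, and the UHO-1 call of -0.16 was lost in 8 of 32 alternatives, including the loss of any of its 4 arrays.

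ADK, which phosphorylates adenosine, moved in opposite directions. In KM-H2 it read 9.25 and 9.32 with vehicle and 9.88 and 9.85 with 4-OHT, a change of 0.58 ± 0.079 (adjusted p = 5.53e-06). In L428 it read 7.83 and 7.77 against 8.18 and 8.02, a change of 0.30 (adjusted p = 0.00477). In L1236 it read 10.20 and 10.24 against 9.98 and 9.96, a change of -0.25 (adjusted p = 0.0215). ADK was thus higher in the lines of the first set and lower in L1236, with no overlap of arms in these 3 lines. In UHO-1 (9.87 and 9.71 against 9.88 and 9.69) and SUP-HD1 (9.89 and 9.68 against 9.77 and 9.78) the arms overlapped. The L1236 call was lost in 7 of 32 alternatives, including the loss of any of its arrays, the L428 call without L428 4-OHT array 1, and the average call of 0.12 without the line KM-H2 or L428.

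TK1, the thymidine kinase that cells make in S phase, was the only one of the 33 genes called higher in L1236. It read 10.41 and 10.42 with vehicle and 10.70 and 10.66 with 4-OHT there, a change of 0.27 ± 0.078 (adjusted p = 0.0143). In KM-H2 it read 9.06 and 9.05 against 8.80 and 8.82 (-0.25), and in L428 9.19 and 9.17 against 9.03 and 8.75 (-0.29), both called lower. In UHO-1 (10.56 and 10.74 against 10.41 and 10.60) and SUP-HD1 (10.47 and 10.51 against 10.38 and 10.33) it was not called. The calls in KM-H2 and L1236 were lost when any array of that line was left out, the L1236 call also under median centring, and the L428 call without L428 4-OHT array 2.

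**Figure D3:**
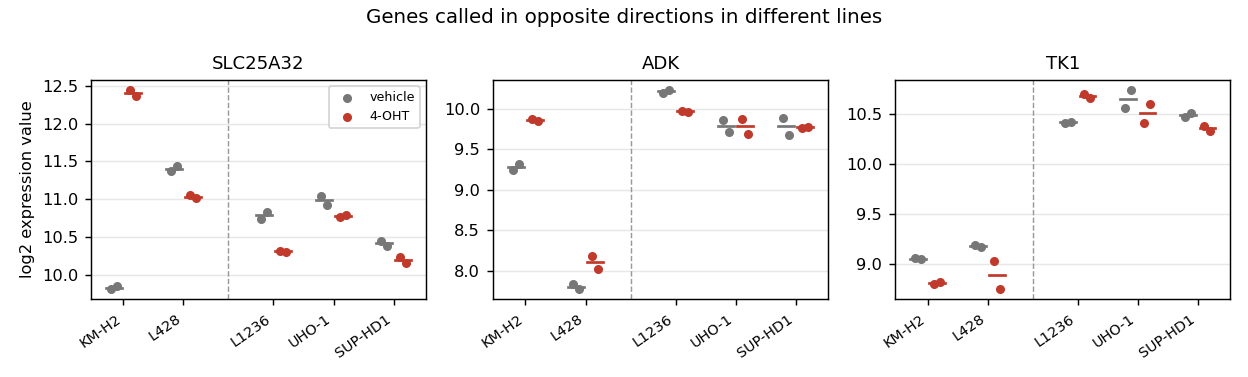
Log2 expression value of the 3 genes called in opposite directions in different lines, with 1 point per array, grey for vehicle and red for 4-OHT, and a bar at the mean of 2 arrays. SLC25A32 is higher with 4-OHT in KM-H2 alone, ADK is higher in KM-H2 and L428 and lower in L1236, and TK1 is higher in L1236 and lower in KM-H2 and L428.

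The other salvage genes and kinases were called in few lines. APRT, which recycles adenine, was called lower in L1236 (-0.54) and UHO-1 (-0.38). The UHO-1 call of APRT was lost without UHO-1 4-OHT array 2. HPRT1, which recycles hypoxanthine and guanine, was called on average (-0.14, adjusted p = 0.00276) but in no single line, and CMPK1, the UMP and CMP kinase, in neither. DTYMK, the thymidylate kinase, was called lower in L428 (-0.42) and in UHO-1 (-0.25), a call kept in 24 of 32 alternatives and lost, among others, without UHO-1 vehicle array 1 or either UHO-1 4-OHT array.

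In each line the median of every branch was negative. The average medians were -0.38 for purine, -0.32 for serine, -0.28 for pyrimidine, -0.27 for PRPP supply, -0.20 for folate and -0.14 for salvage and kinases. In L428 the median was -0.66 for the serine genes, -0.46 for purine, -0.44 for folate and -0.16 for salvage and kinases. In L1236 purine had the lowest median, at -0.53, and PRPP supply the highest, at -0.13. In UHO-1 the serine genes stood at -0.38 and the other branches between -0.16 and -0.23. In SUP-HD1 the range was only from -0.22 (folate, pyrimidine and PRPP supply) to -0.11 (serine). In KM-H2 the folate median was -0.06, and -0.18 without SLC25A32. Differences between branches were not tested, since the genes were picked with earlier results known and each branch holds few of them.

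**Figure D4:**
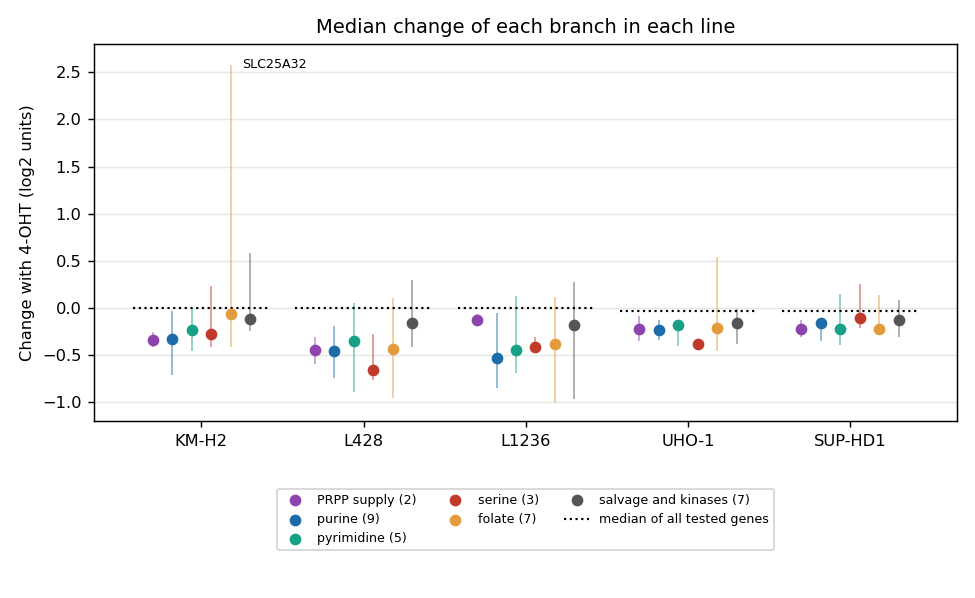
Median change in log2 units (4-OHT minus vehicle) of each branch in each line, with a thin line from the lowest to the highest gene of the branch and a dotted line at the median of all tested genes. Every branch median lies under the dotted line of its line, and the folate range in KM-H2 reaches 2.58 through SLC25A32.

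The size of the change varied between lines for 23 of the 33 genes by limma's F test, beside 42.7% of all genes. Leaving out L428 or L1236 reduced this to 15 in each case. The share of all genes in those fits is not given, so nothing particular to these genes is read from the drop. Between KM-H2 and L428 the change differed for 12 genes, beside 22.9% of all genes, and in each the value was higher in KM-H2. How all genes split by direction is not given for these lines. After SLC25A32 (2.95 log2 units) the differences were largest for PHGDH (0.89 ± 0.18, adjusted p = 7.08e-04), SHMT1 (0.65 ± 0.13, adjusted p = 5.85e-04) and CAD (0.55 ± 0.11, adjusted p = 5.79e-04). All except SLC25A32 are genes that fell in L428 and fell less, or were not called, in KM-H2. PHGDH lay near the floor of 5 in KM-H2, with a vehicle mean of 5.22 against 10.76 in L428. A fall of PHGDH in KM-H2 could therefore hardly have been seen.

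L1236 was set against the other lines of its set with the same L1236 arrays in both comparisons. Against UHO-1 the change differed for 9 genes, a share near the 25.7% of all genes. It was lower in L1236 for 8 of them, where 16.3% of all genes were lower and 9.41% higher. UCK2 differed most (-0.81 ± 0.076, adjusted p = 6.46e-08), then ATIC (-0.63 ± 0.11) and MTHFD1L (-0.58 ± 0.13). TK1 was the exception, higher in L1236 by 0.41 ± 0.11 (adjusted p = 0.00909). Median centring moved the difference of the median gene from 0.0041 to -0.12 in this comparison, and then 13 genes were lower in L1236 and none higher, beside 23.1% and 4.78% of all genes. Leaving out L1236 vehicle array 2 left 5 genes and leaving out UHO-1 vehicle array 2 left 4. Against SUP-HD1 the change differed for 13 genes, beside 14.1% of all genes, 12 of them lower in L1236 and again TK1 higher (0.40 ± 0.11). How all genes split by direction is not given for this pair. MTHFD1L (-0.77), PSAT1 (-0.67), UCK2 (-0.66), ATIC (-0.59) and MTHFD2 (-0.55) differed most. Without L1236 4-OHT array 2 the count was 7 and without SUP-HD1 vehicle array 2 it was 6.

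Between UHO-1 and SUP-HD1 the change differed for PSAT1 (-0.63 ± 0.15, adjusted p = 0.0140) and MTHFD2 (-0.36 ± 0.081, adjusted p = 0.0108), beside 4.04% of all genes. Both were called lower in UHO-1 and had a positive sign in SUP-HD1. The count was 1 when either 4-OHT array of either line was left out and 0 under median centring.

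The vehicle arrays of the lines differed for most of the genes. Between the vehicle arrays of KM-H2 and L428, 25 of the 33 genes differed, beside 54.2% of all genes. Between L1236 and UHO-1, 26 differed, beside 56.8%. Between L1236 and SUP-HD1, 23 differed, beside 57.5%, and between UHO-1 and SUP-HD1, 20, beside 53.8%. Between UHO-1 and SUP-HD1 the count lay near the share of all genes. The shares were not compared among genes of like signal, so nothing is read from them. In each pair of lines differences ran both ways.

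PHGDH had the widest range. Its vehicle arrays read 5.16 and 5.28 in KM-H2 and 10.83 and 10.70 in L428, a difference of -5.55 ± 0.13 log2 units (adjusted p = 2.35e-20). In the other set they read 10.88 and 10.92 in L1236, 9.52 and 9.39 in UHO-1, and 5.79 and 6.15 in SUP-HD1. SUP-HD1 was thus lowest, by 4.93 log2 units under L1236 and by 3.48 under UHO-1. CTPS2 was at 9.26 and 9.02 in L428 and below the floor of 5 in KM-H2 (4.82 and 4.57), so that only a bound on its level there is known. It was at 7.24 and 7.01 in SUP-HD1 and below the floor of 5 in L1236 and UHO-1. PSAT1 was highest in SUP-HD1 (10.93 and 10.88, against 8.97 and 8.84 in UHO-1, a difference of -2.0 ± 0.11). In SUP-HD1, low PHGDH stood beside high PSAT1, the next enzyme of the same pathway.

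**Figure D5:**
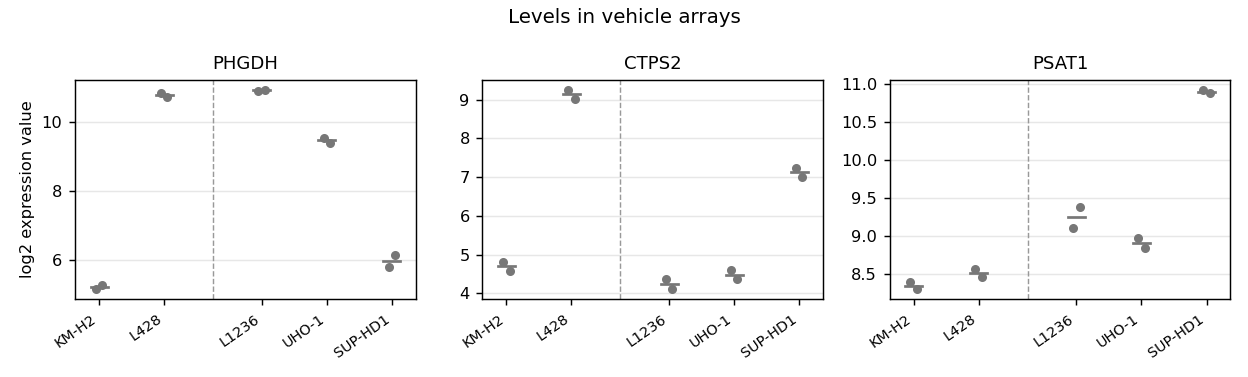
Log2 expression value of PHGDH, CTPS2 and PSAT1 in the 2 vehicle arrays of each line, with a bar at their mean. A dashed line stands between the sets taken as normalised separately. Within the sets, PHGDH is low in KM-H2 and SUP-HD1, CTPS2 is high in L428 and SUP-HD1, and PSAT1 is highest in SUP-HD1.

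Other genes of these pathways moved less evenly. Of 6 tested genes of deoxynucleotide synthesis, 4 were lower and 1 higher on average, beside 21.2% and 17.4% of all genes. Their median was -0.17. TYMS, the thymidylate synthase, changed by -0.34 ± 0.026 on average (adjusted p = 4.16e-10) and by 0.02 in L1236, and DUT, the dUTPase, by -0.35 ± 0.037. RRM1, the large subunit of ribonucleotide reductase, changed by -0.25, and RRM2B, its p53-induced small subunit, by 0.21, through L428 (0.91, adjusted p = 2.58e-08). Of 17 other nucleotide enzymes and carriers, 5 were lower and 1 higher, beside the same 21.2% and 17.4% of all genes. Their median of -0.02 lies near that of all genes. Among them SLC29A1, a nucleoside carrier of the cell membrane, changed by -0.56 ± 0.027 (adjusted p = 1.27e-13) and was lower in every line, from -0.22 in SUP-HD1 to -0.96 in L1236. NME2 (-0.24), PNP (-0.27) and AMPD2 (-0.23) followed.

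Of 17 other folate, glycine and methionine genes, 6 were lower and 2 higher on average, beside 21.2% and 17.4% of all genes. Their median was -0.09. SLC19A1, the reduced folate carrier, changed by -0.39 ± 0.034 (adjusted p = 4.05e-09), and AHCY, which clears S-adenosylhomocysteine, by -0.35 ± 0.030 (adjusted p = 2.83e-09). The neutral amino acid carriers SLC1A4 (0.38 ± 0.032, adjusted p = 1.65e-09) and SLC38A2 (0.38 ± 0.032, adjusted p = 2.02e-09) rose. SLC1A4 rose in every line except UHO-1, and SLC38A2 in L428 (1.15) and UHO-1 (0.46).

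MYC was called lower in every line, with changes of -2.44 in KM-H2, -1.37 in L1236, -0.61 in L428, -0.43 in SUP-HD1 and -0.21 in UHO-1, and of -1.01 ± 0.034 on average (adjusted p = 2.82e-16). The largest fall of MYC was in KM-H2 and the smallest in UHO-1. ATF4 was higher by 0.10 on average (adjusted p = 0.00964) and in KM-H2 by 0.26. Of 11 ATF4 targets outside the 34 genes, 3 were lower (among them ASNS and SLC7A11) and 2 higher (CEBPB and SESN2). Those counts lie near the shares of all genes, 21.2% and 17.4%, and the median was 0.02. Proliferation markers moved too. Of 12, 7 were lower and none higher on average, beside 21.2% and 17.4% of all genes. MCM3 changed by -0.45, MCM4 by -0.34, MCM2 by -0.39 and PCNA by -0.26. In L428 11 of the 12 were lower, beside 17.5% of all genes. In L1236 none was lower and 4 were higher, beside 14.9% and 8.25% of all genes. The part of MYC, of ATF4 or of proliferation in the changes of the 33 genes was not tested.

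Without the arrays labelled L1236 the average again called 28 of the 33 genes lower and 3 higher, with a median of -0.26, beside 21.0% and 18.2% of all genes. The purine genes were then all lower with a median of -0.33, the pyrimidine genes 4 of 5 (-0.26), the serine genes all 3 (-0.29), the folate genes 5 of 7 with 2 higher (-0.20), and salvage and kinases 5 of 7 with 1 higher (-0.16). The called averages that moved by over 1.5 times were those of UCK2 (-0.24 in place of -0.38), MTHFD2 (-0.086 in place of -0.15), TK1 (-0.20 in place of -0.11), ADK (0.21 in place of 0.12) and SLC25A32 (0.45 in place of 0.26).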

How the data were processed

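Per the labels' protocols, the RNA was measured on Affymetrix Human Gene 1.0 ST arrays. The deposited values are log2 expression values that the authors made by robust multichip average (RMA), per the submitters' processing notes. Its version is not given in the sources used here. Sorted values differed by at most 0.253 within the KM-H2 and L428 arrays, by at most 0.204 within the other 12, and by at least 0.712 between these sets. The sets were read from these differences.

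Of 33268 probe sets, the platform annotation gave 1 symbol to 19457, several to 1751 and none to 12060. Of these, 19426 matched RefSeq GRCh38.p14, which changed 0 symbols. Where a gene had several (767 genes), the probe set of highest mean was taken (PSPH, MTHFD2 and DTYMK here, the last with identical values). Genes at log2 5 or more in at least 2 arrays were kept, 15850 of 18416. A model of 10 group means was fitted to all 20 arrays with limma 3.58.1 in R 4.3.3 (eBayes with intensity trend, 10 residual and 11.8 prior degrees of freedom), with two-sided tests, and was checked on simulated data. Errors are standard errors.

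All 34 genes are named. Every array's value is given for genes called in all lines, the smallest average p of each branch, genes called in opposite directions, and the largest rise and fall. Other genes come from lists, up to 4 each by average p, besides MYC and ATF4. The genes and lists were chosen with earlier results of these data known. Samples were grouped by title. The number of arrays limits the precision.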

Additional observations from a re-analysis of the deposited data

Results flagged for a closer look

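For 23 of the 33 genes the change with 4-OHT differed between lines by limma's F test (adjusted p below 0.05 over all genes), and the span between the line with the highest and the line with the lowest change is given here in log2 units. The span was widest for SLC25A32, 3.06 between KM-H2 and L1236 (adjusted p = 2.77e-18). Among the purine genes it was 0.63 for ATIC, 0.54 for IMPDH2, 0.52 for PFAS, 0.45 for PPAT, 0.38 for PAICS, 0.37 for GART and 0.37 for GMPS, and for PRPS2 it was 0.40. Among the pyrimidine genes it was 0.71 for CAD and 0.35 for CTPS1. Among the serine genes it was 1.02 for PSAT1, between L428 and SUP-HD1 (adjusted p = 1.93e-04), and 0.89 for PHGDH, between L428 and KM-H2. Among the folate genes it was 0.78 for SHMT1, 0.77 for MTHFD1L, 0.55 for MTHFD2 and 0.38 for SHMT2. Among salvage enzymes and kinases it was 0.85 for UCK2 (adjusted p = 2.99e-08), 0.83 for ADK, 0.56 for TK1, 0.50 for DTYMK, 0.39 for APRT and 0.35 for CMPK1. DHODH and MTHFD1, lower in every line, were not among the 23.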

How the results depend on the processing

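Of the 31 calls on the average, 22 were kept in every alternative in which they were tested other than the lines as replicates, and of the 99 calls in single lines 61 were. With the lines as replicates 0 genes were lower and 0 higher on average. Under median centring 9 genes were lower in UHO-1 and 4 in SUP-HD1, 0 were higher in L1236, and 0 changes differed between UHO-1 and SUP-HD1. Without the intensity trend 4 were lower in SUP-HD1, 6 changes differed between L1236 and SUP-HD1 and 0 between UHO-1 and SUP-HD1. With array weights 0 were higher in L1236. With the mean of probe sets 1 change differed between UHO-1 and SUP-HD1. With a floor of 6 or of 8, 0 were higher in UHO-1, since ALDH1L2 was then not tested. With quantile normalisation, and with the 4 arrays of the line alone, 1 was higher in SUP-HD1. On average 1 was higher without KM-H2 and 1 in the set of SUP-HD1, UHO-1 and L1236 alone. The change varied between lines for 15 genes without L428 and for 15 without L1236. Counts in this section stand without the shares of all genes in the same fits, so nothing particular to these genes is read from them.

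Leaving out each of the 20 arrays in turn gave 9 to 19 genes lower in UHO-1, 2 to 10 lower in SUP-HD1, 2 to 4 higher in KM-H2, 0 to 1 higher in L428 and 0 to 1 higher in L1236. The change differed for 4 to 10 genes between L1236 and UHO-1, for 6 to 14 between L1236 and SUP-HD1, and for 1 to 2 between UHO-1 and SUP-HD1. Signs of averages turned for SLC25A32 (-0.32 without KM-H2 and -0.30 in the set of 3 lines alone), ADK (-0.092 in that set) and CMPK1 (0.061 in KM-H2 and L428 alone). The CTPS2 change on average ran from -6.3e-04, without KM-H2 4-OHT array 2, to 0.059.

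The labels do not say that arrays of the same number belong together. Deviations of same-numbered arrays correlated at 0.294 in UHO-1, 0.282 in SUP-HD1, 0.0372 in L428, -0.0822 in KM-H2 and -0.557 in L1236. With the replicate number as a block, 28 genes were lower on average, 16 in UHO-1 and 7 in SUP-HD1. With the numbers crossed in L1236, an alternative added after seeing the data like the lines as replicates, 28 were lower on average, 25 in L1236 and 12 in SUP-HD1, where 1 was higher. The cause of these shifts was not tested. Signal near the floor limits CTPS2, ALDH1L2 and, in KM-H2, PHGDH.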
